A study of Homo sapiens with 2 samples.

Results

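The genes described here are 10 of those that set the pace of the G1 phase of the cell cycle. These are 4 cyclins (CCND1, CCND2, CCND3 and CCNE1), 2 kinases (CDK4 and CDK6) and 4 inhibitors (CDKN1A, CDKN1B, CDKN2A and CDKN2B). They were chosen by gene identity, as the rows of the deposited table with their Ensembl IDs, and all 10 were found among the 18394 genes of the table. Expression was compared between MDA-MB-231, an established human line from an oestrogen receptor negative breast cancer, and its bone-metastasising variant MDA-MB-231(SA). Total RNA came from 1 culture of each line, and each was hybridised to 1 Affymetrix array. Both cultures were kept in flasks in the same medium, DMEM with 1000 mg/L glucose and 10% inactivated fetal bovine serum, with no treatment given in the labels. With 1 array per line there is no replicate, so no difference below has a test or an error of its own, and a difference between the cultures cannot be told apart from one between the lines.

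G1 is the stretch between mitosis and DNA replication in which a cell commits to a new division. D-type cyclins switch on CDK4 and CDK6, which begin to phosphorylate the retinoblastoma protein, and cyclin E with CDK2 continues that step and releases the E2F factors that drive genes of S phase. INK4 inhibitors bind CDK4 and CDK6 and keep the D cyclins off, whereas CIP/KIP inhibitors bind whole cyclin and kinase complexes, block those with CDK2 and help those of D cyclins to assemble. MDA-MB-231 is known to carry a homozygous deletion of CDKN2A and a mutant p53, the factor that otherwise switches on CDKN1A after DNA damage.

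Levels are on the log2 scale, as the authors deposited them after RMA, which corrects background, equalises the arrays and summarises the probes of a gene. The median over both arrays, 5.62, served as a level floor, and the 9725 genes at or above it in either line were compared. Calls of higher or lower in SA needed a difference, SA minus parental, of at least 1 on the log2 scale, a 2-fold size. Of the 10 G1 genes, 7 were compared and 3 lay below the floor on both arrays. The table held no control rows, and the identity of the lines was not checked against marker genes, since no symbols were paired here with IDs beyond those of the 10.

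Cyclin D3 was the 1 G1 gene past the 2-fold size, at a lower level in SA, and no G1 gene was higher by that size. That is 1 of 7 (14.3%) lower and 0 of 7 higher, beside 4.17% lower and 5.75% higher among all genes compared, and with 7 genes a single call cannot be set apart from that background. The other 6 differed by less than 2-fold. CCND1, CDKN1A and CDKN1B had lower values in SA, and CCNE1, CDK4 and CDK6 had higher ones. Differences of the 7 genes ran from -1.01 to 0.48 with a median of -0.38, beside a median of 0.045 over the 9725 genes. This median depends on the genes kept by the floor. It was -0.038 over all 10 genes and 0.044 over the 9 that reached the 25th percentile on either array.

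**Figure D1:**
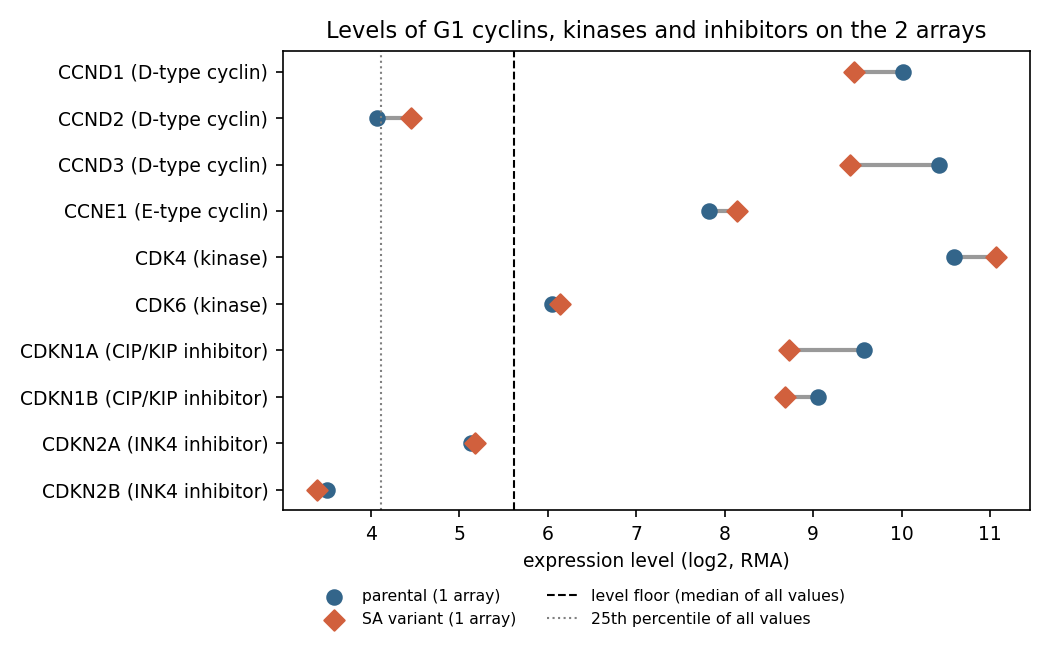
Expression level (log2, RMA) of each G1 gene on the parental array (circles) and the SA array (diamonds), 1 array per line and no error bars. The dashed line is the level floor of 5.62 and the dotted line the 25th percentile of all values, 4.12; CCND3 has the longest bar, and CCND2, CDKN2A and CDKN2B lie left of the floor on both arrays, so levels should be read along a row and not between rows.

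The D-type cyclins relay growth signals to the cell cycle and differ from each other mainly in the tissues that use them. CCND3 (ENSG00000112576_at), cyclin D3, read 10.4 in parental cells and 9.41 in SA cells. The difference was -1.01, so the level in SA was 0.495 times that in the parental line. CCND3 thus lay only just past the 2-fold size, and a difference at least as large in either direction was seen for 9.56% of the genes compared. Among the 1000 genes nearest to it in mean level, 33 (3.30%) were lower in SA by as much or more.

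CCND1 (ENSG00000110092_at), cyclin D1, the D cyclin most often amplified in breast cancer, stood at 10.0 in the parental line against 9.46 in SA. Its difference of -0.56, a ratio of 0.681, stayed under the 2-fold size and also under a 1.5-fold size. Of the 1000 genes nearest in level, 13.3% were lower by at least as much, so a difference of this size was common between the arrays. In either direction, 29.9% of the genes compared differed by at least as much as CCND1. CCND2 (ENSG00000118971_at), cyclin D2, measured 4.07 in the parental line and 4.45 in SA. Both values lay below the floor, where RMA values may hold mostly background, so CCND2 was not compared and no fold is given. Of the 8669 genes that stayed under the floor in both lines, 17.4% differed by at least as much as CCND2. CCND1 and CCND3 therefore had lower values in SA, and CCND2 was too dim in both lines to be set beside them.

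CCNE1 (ENSG00000105173_at), cyclin E1, the partner of CDK2 at the end of G1, read 7.82 in parental cells and 8.14 in SA cells. The difference of 0.31, or 1.24-fold, was opposite in sign to those of CCND1 and CCND3 and was exceeded or equalled in size by 54.5% of the genes compared. It lay within the bulk of differences between the arrays. Of the 1000 genes nearest to CCNE1 in level, 30.4% were higher in SA by as much or more.

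The 2 kinases bind the same D cyclins and are inhibited together by a class of drugs used in breast cancer. CDK4 (ENSG00000135446_at) stood at 10.6 in the parental line against 11.1 in SA. The difference of 0.48 was the most positive of the 7 genes compared, at 1.39-fold, and 35.8% of the genes compared differed by at least as much in either direction. Among the 948 genes nearest to CDK4 in level, 15.9% were higher in SA by as much or more. CDK6 (ENSG00000105810_at) measured 6.04 in the parental line and 6.13 in SA. Its difference was 0.09, and 85.1% of the genes compared differed by more or as much in either direction. Among the 1000 genes nearest to CDK6 in level, 43.6% were higher in SA by as much or more. Both CDK6 values lay within 0.515 of the floor, where background that remains in RMA values can shrink a difference. Whether it did so for CDK6 was not tested.

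Of the inhibitors, the CIP/KIP pair was well above the floor in both lines and the INK4 pair was below it in both. CDKN1A (ENSG00000124762_at), which encodes p21, read 9.57 in parental cells and 8.72 in SA cells. The difference of -0.85 gave a ratio of 0.556, a 1.80-fold lower level in SA that passed a 1.5-fold size but not the 2-fold size. Past the 1.5-fold size in the lower direction were 2 of the 7 genes, CCND3 and CDKN1A, beside 11.8% of all genes compared, and in the higher direction none of the 7, beside 15.8%. Of the 1000 genes nearest to CDKN1A in level, 66 (6.60%) were lower in SA by at least as much. In either direction, 14.4% of the genes compared differed by at least as much as CDKN1A. CDKN1B (ENSG00000111276_at), which encodes p27, stood at 9.05 in the parental line against 8.68 in SA. Its difference of -0.38, a ratio of 0.771, had the same sign as that of CDKN1A, and 21.6% of the genes nearest in level were lower by as much or more. In either direction, 46.3% of the genes compared differed by at least as much as CDKN1B.

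CDKN2A (ENSG00000147889_at) encodes p16INK4a and, in another reading frame, p14ARF, which its single row cannot tell apart. Its level was 5.13 in parental cells and 5.18 in SA cells, below the floor but above the 25th percentile of all values, 4.12. Given the homozygous deletion of CDKN2A named above for the parental line, neither value is read as expression of the gene. If the deletion holds in these cultures, which was not tested, background on these arrays can lie above the 25th percentile. CDKN2B (ENSG00000147883_at), which encodes p15INK4b and is the neighbour of CDKN2A on chromosome 9, measured 3.51 in the parental line and 3.39 in SA, below the 25th percentile in both. The values of CDKN2A differed by 0.04 and those of CDKN2B by -0.12 between the arrays. Of the 8669 genes under the floor in both lines, 85.6% differed by at least as much as CDKN2A and 63.0% by at least as much as CDKN2B.

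**Figure D2:**
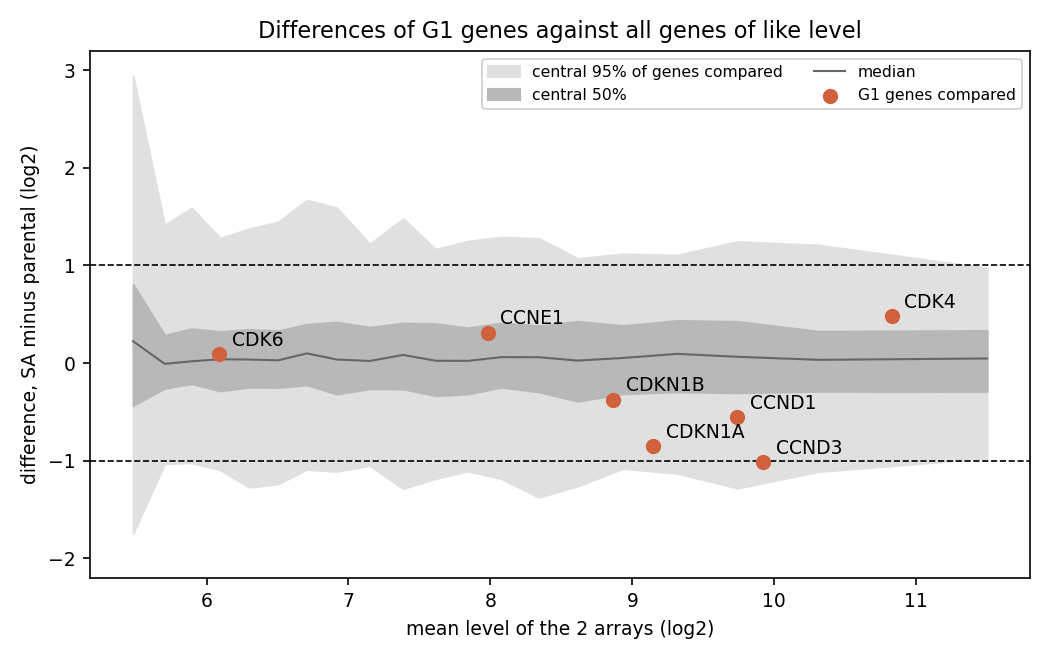
Difference, SA minus parental (log2), of the 7 G1 genes compared (points) against their mean level on the 2 arrays, over the central 50% (dark grey) and central 95% (light grey) of all 9725 genes compared, in 20 bins of mean level. Dashed lines mark the 2-fold size; CCND3 lies on the lower line, CDKN1A just inside it, CDK6 and CCNE1 lie within the dark band, and all 7 lie within the light band.

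The spread between the arrays over genes of like level was close to 0.5 on the log2 scale for each of the 7 genes. For CCND3 the robust SD of the difference was 0.50 among the 1000 nearest genes, and CCND3 lay at -2.13 of these SDs from their median. On the same measure CDKN1A lay at -1.73, CCND1 at -1.25 and CDKN1B at -0.779 SDs. CDK4, set against the 948 genes nearest to it, lay at 0.966 SDs, CCNE1 at 0.535 and CDK6 at 0.147. This spread holds real differences between the lines as well as array noise, and the 2 were not separated.

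The encoded proteins act in complexes, so the change of the ratio between 2 genes was also taken. Taking a ratio cancels any shift common to a whole array. These are ratios of RNA levels and do not measure complexes of protein. Of the 21 pairs among the 7 genes, 6 (28.6%) changed by at least 2-fold, beside 22.6% of all pairs of genes compared; these shares are near each other and nothing is read from the count. The 6 pairs share CCND3 (3 pairs), CDK4 (3 pairs), CCNE1 (2 pairs), CDKN1A (2 pairs), CCND1 and CDK6 (1 pair each) and are not independent of each other. CCND3 relative to its kinase CDK4 had a ratio 2.81-fold lower in SA, a change of -1.49, and 9.59% of all gene pairs changed by at least as much. This pair joins the lowest and the highest of the 7 differences, so it is the largest of the 21 by construction. Its share is therefore not that of a pair fixed in advance. CCND1 relative to CDK4 was 2.05-fold lower, a change of -1.03 that 21.3% of all gene pairs reached.

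Ratios to p21 were higher in SA for both kinases and for cyclin E1. The ratio of CDK4 to CDKN1A was 2.51-fold higher in SA, a change of 1.33 that 12.7% of gene pairs reached. The ratio of CCNE1 to CDKN1A was 2.23-fold higher, with a change of 1.16 that 17.1% of gene pairs reached. CDK4 had the highest of the differences given above and CDKN1A the lowest after CCND3. The shares of pairs with these genes are therefore also not those of pairs fixed in advance. The ratio of CDK6 to CDKN1A differed by 0.94, under the 2-fold size, and 25.2% of gene pairs differed by at least as much. For the D cyclins the ratio to p21 differed less, by 0.29 for CCND1 and -0.17 for CCND3. The ratio of CDKN1A to CDKN1B differed by -0.47, and 54.4% of gene pairs differed by at least as much. Each of these values combines the differences given above and adds no measurement of its own.

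**Figure D3:**
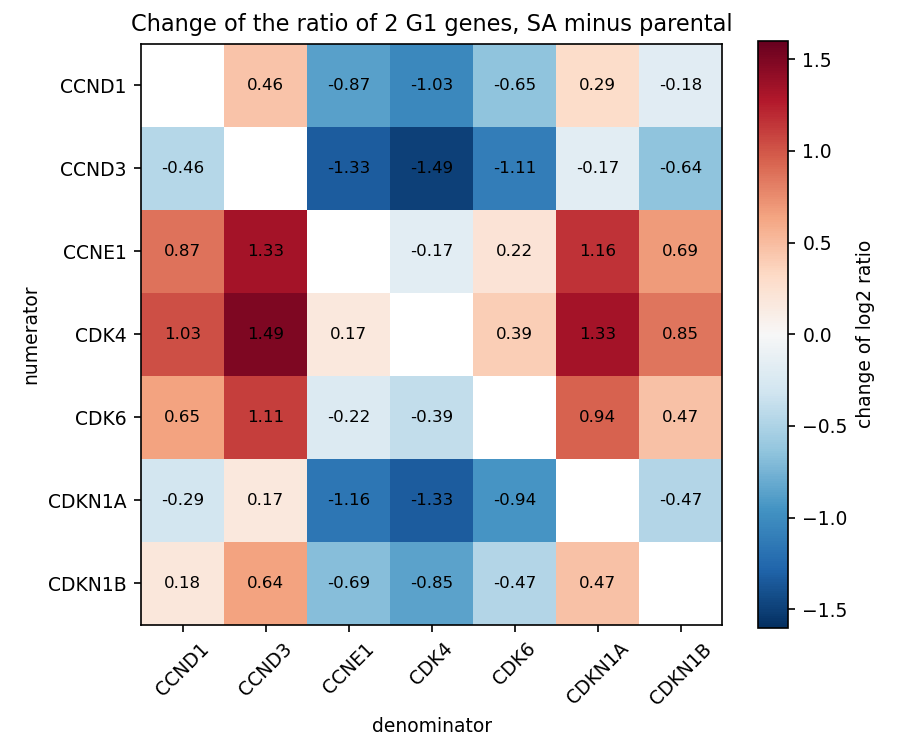
Change, SA minus parental, of the log2 ratio of the gene in the row to the gene in the column, for the 7 G1 genes compared; red is a ratio higher in SA and blue a ratio lower in SA. The darkest cells are those of CCND3 and CDK4 (-1.49), with CDK4 and CDKN1A at 1.33 and CCND3 and CCNE1 at -1.33.

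No gene compared changed sign or crossed the 2-fold size when the values were treated in other ways. A floor only chooses which genes are kept and cannot alter a difference. The treatments listed among the processing steps that could alter one were centring, trend subtraction, quantile normalization and background subtraction. As deposited and under these treatments, CCND3 ran from -1.06 to -1.01 and stayed past the 2-fold size. CDKN1A ran from -0.91 to -0.85 and never reached it. CDK4 ran from 0.43 to 0.48, CCND1 from -0.61 to -0.56 and CDKN1B from -0.44 to -0.38. CCNE1 ran from 0.26 to 0.34. The small difference of CDK6 moved most in proportion, from 0.027 after quantile normalization to 0.129 after background subtraction. These settings reuse the same 2 arrays and do not stand in for a replicate.

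**Figure D4:**
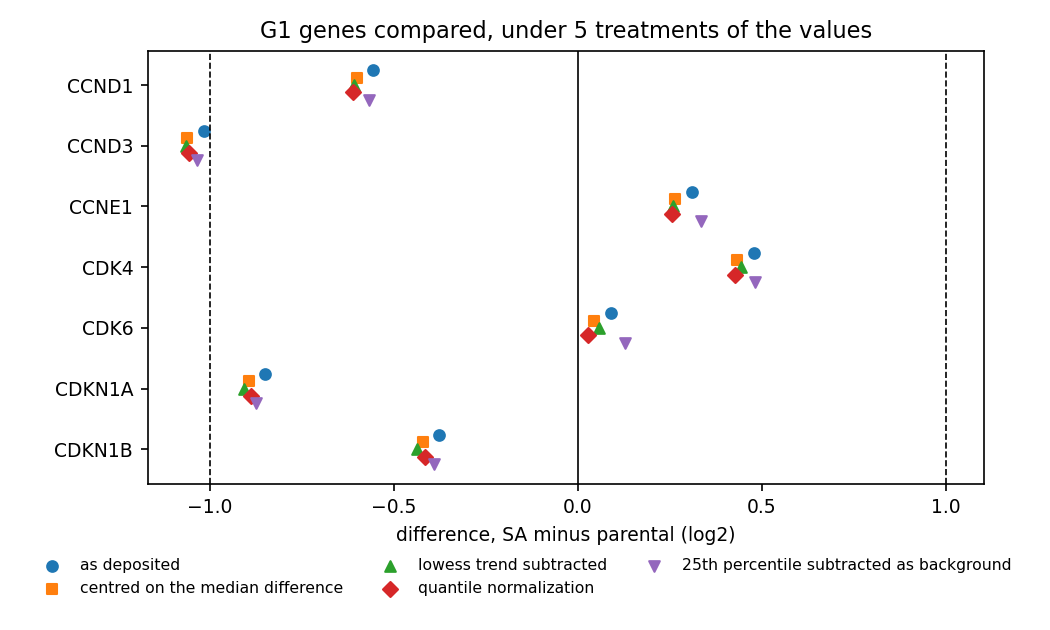
Difference, SA minus parental (log2), of the 7 G1 genes compared under 5 treatments of the same 2 arrays; dashed lines mark the 2-fold size and the solid line 0. CCND3 stays left of the lower dashed line under each treatment, no other gene crosses a dashed line, and no gene changes sign.

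The 250 bases upstream of a RefSeq transcript start are shown for CCND3 and CDKN1A, whose differences were the most negative, and for CDK4, whose difference was the most positive. Sequences are from RefSeq on build GRCh38.p14, 5′ to 3′ on the strand of the gene, and end at the base before the start. CCND3 has 3 starts in the table used, of which 1 is shown, and the array values do not tell which start was in use. The windows of CCND3 and CDKN1A lie inside the RefSeq span of the gene, since other transcripts start further upstream. Capitals mark the GC box GGGCGG, the site of SP1 family factors, and the E-box CACGTG, a site of MYC and related factors, on either strand.
CCND3, chr6:41941809-41942058, - strand: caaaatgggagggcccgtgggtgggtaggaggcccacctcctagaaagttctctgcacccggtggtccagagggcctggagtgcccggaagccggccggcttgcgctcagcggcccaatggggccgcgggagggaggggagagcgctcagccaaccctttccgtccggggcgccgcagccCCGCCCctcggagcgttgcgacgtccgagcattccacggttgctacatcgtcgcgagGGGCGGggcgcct
CDKN1A, chr6:36678464-36678713, + strand: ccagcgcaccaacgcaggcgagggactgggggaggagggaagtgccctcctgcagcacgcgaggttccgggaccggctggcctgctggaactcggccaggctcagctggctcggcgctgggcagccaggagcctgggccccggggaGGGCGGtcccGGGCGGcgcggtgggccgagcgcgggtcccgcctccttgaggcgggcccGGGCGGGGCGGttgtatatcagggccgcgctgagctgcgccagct
CDK4, chr12:57752311-57752560, - strand: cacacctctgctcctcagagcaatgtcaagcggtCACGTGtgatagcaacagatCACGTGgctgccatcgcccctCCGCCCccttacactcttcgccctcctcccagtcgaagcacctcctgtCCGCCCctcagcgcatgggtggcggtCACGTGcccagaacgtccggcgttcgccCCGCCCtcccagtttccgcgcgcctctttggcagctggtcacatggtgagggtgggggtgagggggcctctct

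The CDK4 window held 3 copies of CACGTG, at 210, 190 and 95 bases before the start. At least 1 copy occurred in 6.34% of the 35116 windows of the same length in the RefSeq table, and 3 or more copies in 28 windows (0.0797%). The other 11 of the 12 windows found for 8 of the G1 genes held no copy. Since 12 windows and several motifs were searched, these shares are not those of a search fixed on CDK4. Binding at these sites and a link to the CDK4 difference were not tested. GGGCGG was found in 9 of the 12 windows, beside 42.6% of all windows, but windows of 1 gene share their source. The CDKN1A window held 4 copies, of which the 2 nearest the start overlap, the CDK4 window 3 and the CCND3 window shown 2; the other windows of CCND3 held 5 and 0. The GC content was 71.2% in the CCND3 window shown, 76.4% in that of CDKN1A and 65.6% in that of CDK4, against a median of 58.0% over all windows, which by itself makes GGGCGG more frequent.

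An exact E2F site, searched on both strands as TTTCCCGC, TTTGGCGC, TTTCGCGC or TTTGCCGC, was in 0 of the 12 windows, beside 2.79% of all windows. The letters TATAAA, the core of a TATA box, were also in 0 of the 12, beside 10.7%. No match says only that these letters are not in these windows. The genes lay on 6 chromosomes, with CCND3 and CDKN1A on chromosome 6 and CDK4, CDKN1B and CCND2 on chromosome 12. A link between chromosome and difference was not tested.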

How the data were processed

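Total RNA of 1 parental and 1 SA culture was measured on 1 Affymetrix array each, from 3 µg of RNA. The deposited values are log2 expression levels; the submitters' processing notes name RMA. Its version, the array model and the probe definition were not given in the labels. The log base was taken as 2 because RMA writes log2 values and the values ran from 2.50 to 14.5. Gene symbols of the 10 G1 genes came with their Ensembl IDs; the RefSeq table held 0 Ensembl IDs, so other genes of the pathway, listed in advance by symbol, are not analysed here.

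The difference SA minus parental was computed with Python 3.11.15 (pandas 2.3.3, statsmodels 0.14.6 for lowess). Genes nearest in level were the 500 on either side by mean level. No test was possible with 1 array per group, and precision is limited by the number of arrays. All 10 genes are named, by rule. Alternatives were a floor at the 25th percentile, the 75th percentile, none or on both arrays, centring, lowess (span 0.4), quantile normalization, and sizes of 1.5-fold and 3-fold; subtraction of each array's 25th percentile as background was added after seeing the data. The genes and lists were chosen with earlier results of these data known.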

Additional observations from a re-analysis of the deposited data

How the results depend on the processing

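Leaving out a replicate was not possible with a single array of each line. No paired analysis was possible because each line had a single array. The count of G1 genes higher in SA was 0 under all 10 alternatives. The count lower in SA was 1 under 8 of them, 2 with a size of 1.5-fold and 0 with a size of 3-fold, as a size rule changes counts by construction. The median difference became 0.044 with a 25th percentile floor, where 9 genes were compared, and -0.038 with no floor, where all 10 were. The genes that entered under the lower floor were CCND2, with a difference of 0.39, and CDKN2A, with 0.04; without a floor CDKN2B, with -0.12, entered as well. Under the other settings it stayed within 0.1 of the value reported, except that it was not computed for the size rules. Dim signal limits what can be said of CCND2, CDKN2A, CDKN2B and CDK6.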
